A study of Mus musculus with 10 samples.

Results

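Cells called ieSCs, which the labels describe as embryonic Sertoli-like, were compared by the fibroblast they had been made from. The comparison set 4 arrays of ieSCs from female tail tip fibroblasts (TTFs) against 4 arrays of ieSCs from mouse embryonic fibroblasts (MEFs), 8 of the 10 arrays of the series. The other 2 arrays hold unconverted MEFs and serve here only as a reference level. Membership came from the source name of each array, and every feature with a gene symbol entered the comparison. All 3 groups carry the same background, a congenic strain homozygous for R26-M2rtTA, the doxycycline-dependent transactivator placed at the Rosa26 locus. Both ieSC groups list the transgenes Nr5a1, Wt1, Dmrt1, Gata4 and Sox9, whereas the MEFs list none. The ieSCs were harvested after 2 weeks without doxycycline and the MEFs after 2 weeks of culture, in F12/DMEM medium, and total RNA was labelled with Cy3. Each ieSC origin has 2 names, numbered 1 and 2, with 2 arrays each, called a and b here. Nothing in the labels says whether arrays of a name, or the names themselves, are separate cultures, clones or animals, so p-values measure the spread between these arrays, which may be technical. Unconverted TTFs were not analysed here, so levels kept from the starting cells and levels set during conversion cannot be told apart. Fibroblast origin, age of the source animal and labelled sex cannot be told apart. The label "from MEFs" names no sex.

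Sertoli cells are the somatic support cells of the testis. They surround the germ cells, secrete the ligands that keep spermatogonial stem cells, and in the fetus send hedgehog and anti-Müllerian signals to their neighbours. Fetal Sertoli cells divide and adult ones do not, so cell cycle genes and their inhibitors belong to a description of such cells as much as lineage markers do. Fibroblasts, for their part, keep a record of the body site they came from in their Hox genes, and growth in culture is limited by inhibitors of cyclin-dependent kinases.

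The measurements are log2 intensities, and differences are given as the mean of the 4 TTF-derived arrays minus the mean of the 4 MEF-derived arrays, with a standard error (SE) from limma. A gene was called at a limma adjusted p under 0.05. A value below about 5, which is close to the 40th percentile of each array (4.988 to 5.023), is at the dim end, where a difference is not a ratio of transcript amounts. Of 16650 genes tested, 5998 (36.0%) were called. Of these, 2789 (16.8%) were higher and 3209 (19.3%) lower in TTF-derived ieSCs, and the median difference over all genes was -0.045. At least 2-fold differences made up 2241 calls (13.5%), with 1140 higher (6.85%) and 1101 lower (6.61%). At least 16-fold differences made up 105 higher and 65 lower calls. In 8038 genes (48.3%) the 4 arrays of an origin lay wholly above the 4 of the other. When the 2 arrays of each name were averaged first, leaving 2 values against 2, 2421 genes were called, 2361 of them shared with the 5998. Below, a named call that did not hold in that averaged fit is marked with its adjusted p or a range of these, and counts of lists are given with those of the averaged fit. Every such count is to be read beside the 16.8% higher and 19.3% lower over all genes.

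Correlations between arrays were taken over all 62976 features, named or not and before the filter. Array pairs of a name correlated at 0.9896 to 0.9966, pairs of different names of an origin at 0.9878 to 0.9896, and pairs of different origin at 0.9675 to 0.9754. MEF arrays correlated with TTF-derived arrays at 0.9307 to 0.9408 and with MEF-derived arrays at 0.926 to 0.931. These are correlations across array features, which are not independent replicates. The spread between names thus sits between the spread within a name and that between origins.

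Beyond the groups described below, the largest differences lay in genes of varied function. Evc2, of the primary cilium, stood at 4.24 to 4.71 on the TTF-derived arrays, 11.75 to 12.12 on the MEF-derived arrays and 14.18 to 14.32 in MEFs, a difference of -7.35 ± 0.18, with its other feature at -2.22. The hyaluronan-binding gene Cemip (-7.23 ± 0.37), the neuronal adhesion gene Nrcam (-7.22 ± 0.43) and the membrane protein gene Itm2a (-6.76 ± 0.37) were also at means of 4.88 to 5.19 in TTF-derived ieSCs and at 10.20 to 16.57 in MEFs. Chst5, a sulfotransferase gene, and the transcript C130073F10Rik were low in both TTF-derived ieSCs and MEFs, and high only in MEF-derived ieSCs (-6.51 ± 0.25 and -7.57 ± 0.54). In the other direction, Fmo2, a flavin monooxygenase, and Depp1 were at 11.51 to 13.44 on the TTF-derived arrays and at 3.96 to 7.0 on the MEF-derived arrays, with MEFs at 5.93 to 6.49. Their differences were 6.93 ± 0.73 and 6.98 ± 0.55. Ppp2r2b, a subunit of protein phosphatase 2A, and Ecscr, a membrane protein of endothelium, were higher by 6.80 ± 0.36 and 6.05 ± 0.27, with MEF means of 9.26 and 12.19.

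**Figure D1:**
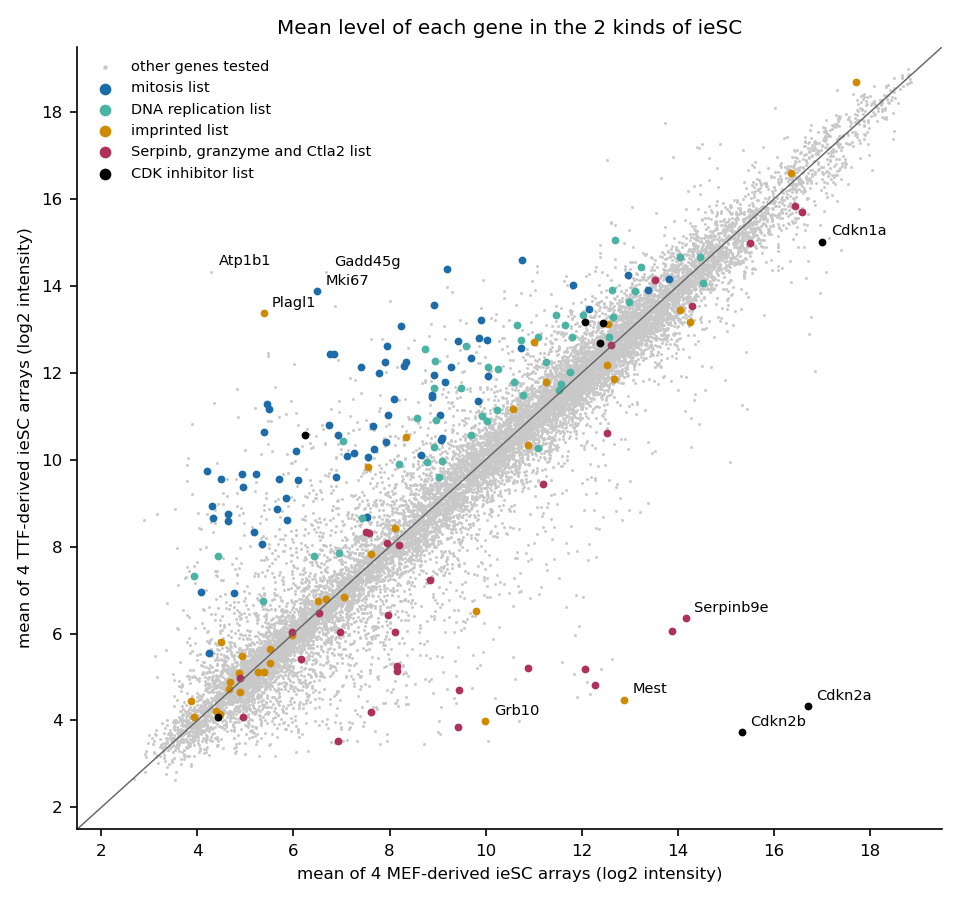
Mean log2 intensity of each of 16650 genes on the 4 MEF-derived arrays (horizontal axis) against the 4 TTF-derived arrays (vertical axis), with the line of equal levels and 5 gene lists in colour. The mitosis genes lie above the line, and Cdkn2a and Cdkn2b lie farthest below it, at means of 4.33 and 3.73 in TTF-derived ieSCs against 16.70 and 15.33.

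The 2 largest falls of the comparison were those of neighbouring genes on chromosome 4 that encode inhibitors of the kinases that start the cell cycle. Cdkn2a encodes both Ink4a, which binds the cyclin D-dependent kinases, and, from an upstream start and another reading frame, Arf, which stabilises p53. Cdkn2b encodes the related inhibitor Ink4b. Cdkn2a stood at 4.07, 4.29, 4.54 and 4.42 on TTF-derived arrays 1a, 1b, 2a and 2b and at 16.83, 16.73, 16.56 and 16.69 on the MEF-derived arrays. On the MEF arrays it stood at 13.92 and 13.78. All 4 TTF-derived values were thus at the dim end and all 4 MEF-derived values above the MEFs. The difference was -12.37 ± 0.15 (SE, n = 4 and 4, adjusted p = 3.1e-10), and its features differed by -12.37 and -9.08. Cdkn2b stood at 3.91, 3.58, 3.92 and 3.49 on the TTF-derived arrays, at 15.47, 15.47, 15.23 and 15.14 on the MEF-derived arrays, and at 13.27 and 13.19 in MEFs. Its difference was -11.60 ± 0.21 (adjusted p = 5.13e-09), with features at -11.60 and -8.74. The labels do not say which transcript of Cdkn2a a feature reads.

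The starts of these genes are printed because they carry the largest difference measured. The sequences run from 250 bases before to 50 bases after each RefSeq start (GRCm38.p6, minus strand, 5′ to 3′), with each CG pair in capitals. The upstream start of Cdkn2a at chr4:89294570-89294869 holds 45 CG pairs, its downstream start at chr4:89282143-89282442 holds 12, and that of Cdkn2b at chr4:89310983-89311282 holds 18, against a median of 7 over 32851 promoters of this length. No methylation or binding was measured here.
Cdkn2a, upstream start: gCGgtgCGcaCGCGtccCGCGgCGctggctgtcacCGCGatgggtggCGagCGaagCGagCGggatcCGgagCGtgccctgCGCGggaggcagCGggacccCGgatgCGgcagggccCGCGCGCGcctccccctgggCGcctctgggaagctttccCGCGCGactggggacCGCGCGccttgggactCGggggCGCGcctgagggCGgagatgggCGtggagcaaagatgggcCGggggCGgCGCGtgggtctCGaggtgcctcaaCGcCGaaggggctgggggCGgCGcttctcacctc
Cdkn2a, downstream start: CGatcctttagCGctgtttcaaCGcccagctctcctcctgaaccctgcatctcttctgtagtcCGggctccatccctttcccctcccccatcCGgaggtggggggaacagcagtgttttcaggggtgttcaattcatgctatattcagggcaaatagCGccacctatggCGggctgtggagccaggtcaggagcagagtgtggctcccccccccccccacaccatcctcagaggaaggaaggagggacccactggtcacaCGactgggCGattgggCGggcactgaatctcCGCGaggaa
Cdkn2b: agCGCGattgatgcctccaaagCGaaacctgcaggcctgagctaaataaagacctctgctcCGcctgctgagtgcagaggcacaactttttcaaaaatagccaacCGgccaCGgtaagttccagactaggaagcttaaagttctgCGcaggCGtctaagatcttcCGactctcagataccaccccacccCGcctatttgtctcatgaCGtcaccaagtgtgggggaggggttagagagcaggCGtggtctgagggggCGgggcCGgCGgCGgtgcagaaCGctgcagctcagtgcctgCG

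Genes next to this pair on the chromosome, chosen by position after the pair's values were seen, differed far less. Mtap, a methionine salvage enzyme and the closest tested neighbour on the Cdkn2a side, stood at 11.41 to 11.64 on the TTF-derived and at 12.15 to 12.38 on the MEF-derived arrays, a difference of -0.71 ± 0.12 (adjusted p = 0.00153). The interferon gene Ifna1 differed by -0.60 (adjusted p = 0.0035, but 0.0609 averaged), Zfp352 on the other side by 1.06 (adjusted p = 0.00176, but 0.0738 averaged), and Ifna5, Gm12633 and Elavl2 were not called. Mtap was at 11.52 in TTF-derived ieSCs against 11.67 in MEFs, and none of the 6 neighbours differed by more than 1.06 in either direction. However, Elavl2 was at the dim end in both kinds of ieSC (3.37 and 3.26). Ifna5 (6.25 and 5.70), Gm12633 (6.28 and 6.23) and Ifna1 (6.96 and 7.56) were not far above it. A large fall could thus not show in these neighbours.

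Of all 8 tested CDK inhibitor genes, 3 were higher and 3 lower (averaged, 2 and 2). Cdkn1a, the inhibitor p21 that p53 induces, stood at 15.81, 15.58, 14.31 and 14.38 on the TTF-derived arrays and at 17.24, 17.06, 16.73 and 17.01 on the MEF-derived arrays. The groups did not overlap, and the difference was -1.99 ± 0.36 (adjusted p = 0.00213, but 0.0783 averaged), with all 12 features between -2.08 and -0.87. Cdkn1b, the p27 inhibitor, was higher by 1.09 ± 0.15 (adjusted p = 0.000524). Cdkn3, a phosphatase whose transcript rises in dividing cells, was higher by 4.33 ± 0.24. Cdkn2c was higher by 0.70 ± 0.22 (adjusted p = 0.0339, but 0.213 averaged), and this call was also lost without either MEF array, without MEF-derived array 1a, 1b or 2a and without TTF-derived array 1b, 2a or 2b, where the differences ran from 0.63 to 0.71, and without both arrays of MEF-derived name 1 it was 0.32. Cdkn2d (0.30 ± 0.12, adjusted p = 0.0815) and the imprinted inhibitor Cdkn1c (-0.35 ± 0.22, adjusted p = 0.258) were not called, and Cdkn1c stood at 4.08 and 4.43 in the ieSC groups against 14.41 in MEFs.

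Mitosis genes were higher in TTF-derived ieSCs without exception among those tested. All 70 tested members of a list of mitosis, kinetochore and spindle genes were called higher, against 16.8% of all genes, and 68 of them at least 2-fold. Their median difference was 3.18, with a range from 0.36 to 7.39, and 65 of them were called higher in the averaged fit. Mki67, the proliferation antigen that coats mitotic chromosomes, stood at 13.52, 13.59, 14.09 and 14.29 on the TTF-derived arrays and at 6.19, 6.04, 6.86 and 6.87 on the MEF-derived arrays, with MEFs at 13.02 and 13.15. Every TTF-derived value lay above both MEF values, and the difference was 7.39 ± 0.26 (adjusted p = 1e-07). Plk1, the Polo kinase of mitotic entry, stood at 12.48, 12.44, 12.79 and 12.81 against 7.85, 7.88, 8.01 and 8.02, a difference of 4.69 ± 0.12. Top2a, which untangles sister chromatids, stood at 11.23, 11.10, 11.44 and 11.34 against 5.57, 5.36, 5.36 and 5.50, a difference of 5.83 ± 0.14. The origins were far apart for each of these genes, and arrays of an origin lay within 1 log2 unit.

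The remaining roles in mitosis behaved alike. Ube2c, the ubiquitin-conjugating enzyme of the anaphase-promoting complex, was higher by 5.68 ± 0.18, the cyclin gene Ccna2 by 5.58 ± 0.17, the chromosomal passenger survivin (Birc5) by 5.17 ± 0.19 and the kinetochore motor Cenpe by 4.35 ± 0.14. Anln, of the cytokinetic ring, was higher by 3.84 ± 0.14, and Cdk1, the kinase that drives mitosis, by 2.58 ± 0.38 (other feature 1.23, not called). Other mitotic genes stood among the 15 largest rises of the whole comparison: the kinase gene Pbk (6.97 ± 0.23), the spindle gene Ska1 (6.25 ± 0.22) and Pimreg (6.14 ± 0.20). Lockd, the noncoding RNA next to Cdkn1b, was there too, at 6.21 ± 0.15. The median level of the list was 11.04 in TTF-derived ieSCs, 7.67 in MEF-derived ieSCs and 10.27 in MEFs. Of the 68 members called at least 2-fold, 64 had their MEF level between the ieSC levels, and for 61 it was nearer that of TTF-derived ieSCs. In bulk RNA of this kind, fewer cells of a type and less RNA per cell cannot be told apart.

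DNA replication genes were higher too, but by less. Of 49 tested members 42 were higher and 2 lower, with a median of 1.24, and 35 and 1 were so in the averaged fit. Mcm5, a subunit of the replicative helicase, stood at 12.13, 11.99, 12.44 and 12.56 on the TTF-derived arrays and at 8.62, 8.77, 9.19 and 9.24 on the MEF-derived arrays, a difference of 3.32 ± 0.21. Mcm10, Mcm3 and Mcm2 were higher by 3.41 ± 0.17, 2.45 ± 0.11 and 2.16 ± 0.12. Uhrf1, which carries DNA methylation through replication, was higher by 3.81 ± 0.24 (other feature 1.67), thymidine kinase (Tk1) by 3.02 ± 0.12, and the polymerase genes Pole and Pold1 by 2.72 ± 0.17 and 1.82 ± 0.12. Rpa1 (0.19 ± 0.18), Rpa3 (0.25 ± 0.12) and Rrm2 (0.77 ± 0.31) were not called. The median level of the list was 11.79, 10.27 and 11.55 in TTF-derived ieSCs, MEF-derived ieSCs and MEFs.

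Genes of the decision to leave G1 split. Of 27 tested, 12 were higher and 6 lower (averaged, 7 and 4). Among the E2F transcription factors, the repressors E2f8 and E2f7 were higher by 3.81 ± 0.20 and 3.43 ± 0.23, although the other feature of E2f7 was at -0.05. The phosphatase gene Cdc25a was higher by 1.21 ± 0.11 and Mycn by 3.45 ± 0.45 (adjusted p = 0.000365, but 0.0519 averaged). Cyclin D3 (Ccnd3) was lower by 1.60 ± 0.20 on the log2 scale and cyclin E1 (Ccne1) fell by 0.92. The retinoblastoma gene Rb1 differed by -0.60 ± 0.10 (adjusted p = 0.00143), with all 10 features between -0.67 and -0.58, but its adjusted p was 0.0518 averaged. Cyclin D1 (Ccnd1), at 16.46 and 17.40, was not called (-0.94 ± 0.33, adjusted p = 0.0511).

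Promoters of the mitosis and replication genes are shown because these genes moved together. In textbook terms, late cell cycle promoters carry a CHR element, often beside CCAAT boxes, and replication promoters carry E2F sites. The sequences below are RefSeq promoters (GRCm38.p6, 250 bases before to 50 after the start, 5′ to 3′ on the gene's strand), with matches in capitals on either strand. The letters searched were TTTGAA for CHR, CCAAT, and TTTGGCGC, TTTCCCGC, TTTCGCGC or TTTGCCGC for E2F. Neighbouring or overlapping matches merge into longer capitals. Ccnb2, cyclin B2, was chosen after its values were seen (12.60 to 12.93 against 9.20 to 9.62, a difference of 3.31 ± 0.15).
Plk1, chr7:122159185-122159484, plus strand: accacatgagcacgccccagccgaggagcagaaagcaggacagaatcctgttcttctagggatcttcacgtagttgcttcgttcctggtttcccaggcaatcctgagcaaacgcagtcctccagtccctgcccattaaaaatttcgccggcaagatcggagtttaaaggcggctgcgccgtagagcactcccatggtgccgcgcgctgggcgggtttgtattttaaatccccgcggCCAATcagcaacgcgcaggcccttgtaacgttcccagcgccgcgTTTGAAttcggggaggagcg
Ube2c, chr2:164769679-164769978, plus strand: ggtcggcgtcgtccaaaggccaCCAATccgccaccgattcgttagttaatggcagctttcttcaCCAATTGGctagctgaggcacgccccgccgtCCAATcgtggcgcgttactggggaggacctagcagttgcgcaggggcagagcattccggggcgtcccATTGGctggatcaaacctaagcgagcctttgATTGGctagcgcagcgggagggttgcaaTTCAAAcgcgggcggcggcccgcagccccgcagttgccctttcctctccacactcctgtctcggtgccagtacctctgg
Ccnb2, chr9:70421505-70421804, minus strand: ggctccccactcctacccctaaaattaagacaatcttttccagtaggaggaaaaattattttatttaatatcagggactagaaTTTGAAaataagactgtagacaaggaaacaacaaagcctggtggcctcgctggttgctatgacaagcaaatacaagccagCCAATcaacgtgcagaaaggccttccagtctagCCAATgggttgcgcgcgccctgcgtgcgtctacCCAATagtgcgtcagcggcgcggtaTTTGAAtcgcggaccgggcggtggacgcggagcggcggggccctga
Mki67, chr7:135716330-135716629, minus strand: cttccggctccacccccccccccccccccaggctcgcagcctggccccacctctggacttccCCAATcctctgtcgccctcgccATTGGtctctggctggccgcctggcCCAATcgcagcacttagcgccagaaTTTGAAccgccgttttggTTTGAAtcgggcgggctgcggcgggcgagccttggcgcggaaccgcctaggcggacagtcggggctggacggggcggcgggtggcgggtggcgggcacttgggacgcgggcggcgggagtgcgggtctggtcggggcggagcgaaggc
Mcm5, chr8:75109259-75109558, plus strand: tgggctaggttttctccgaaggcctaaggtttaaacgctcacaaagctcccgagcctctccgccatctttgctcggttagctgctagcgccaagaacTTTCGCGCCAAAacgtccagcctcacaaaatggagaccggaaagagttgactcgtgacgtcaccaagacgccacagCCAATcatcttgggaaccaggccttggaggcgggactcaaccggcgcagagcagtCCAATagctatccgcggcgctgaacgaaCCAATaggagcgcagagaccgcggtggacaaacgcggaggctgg

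Plk1 holds 1 CHR and 1 CCAAT match, Ube2c 1 and 6, Ccnb2 2 and 3, and Mki67 2 and 3, while Mcm5 holds no CHR match, 3 CCAAT and 2 E2F matches. Of the 59 tested mitosis genes with a promoter sequence, 39 (66.1%) held the CHR letters, against 20.2% of 27025 genes with a promoter and 15.4% of the 13188 tested ones. CCAAT stood in 44 of the 59 (74.6%, against 41.1% and 42.4%), and both in 33 (55.9%, against 7.97% and 6.32%). The E2F letters stood in 17 of 40 replication genes (42.5%, against 2.6% and 3.87%). Within the mitosis list, the 39 genes with the CHR letters had a median difference of 3.31 and the 20 without them 3.16. Outside the cell cycle lists, 331 of 1980 tested genes with the CHR letters (16.7%) were higher, and 1700 of 11056 without them (15.4%). The median thus differed little between members with and without the letters, and a match is a description of the window only.

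**Figure D2:**
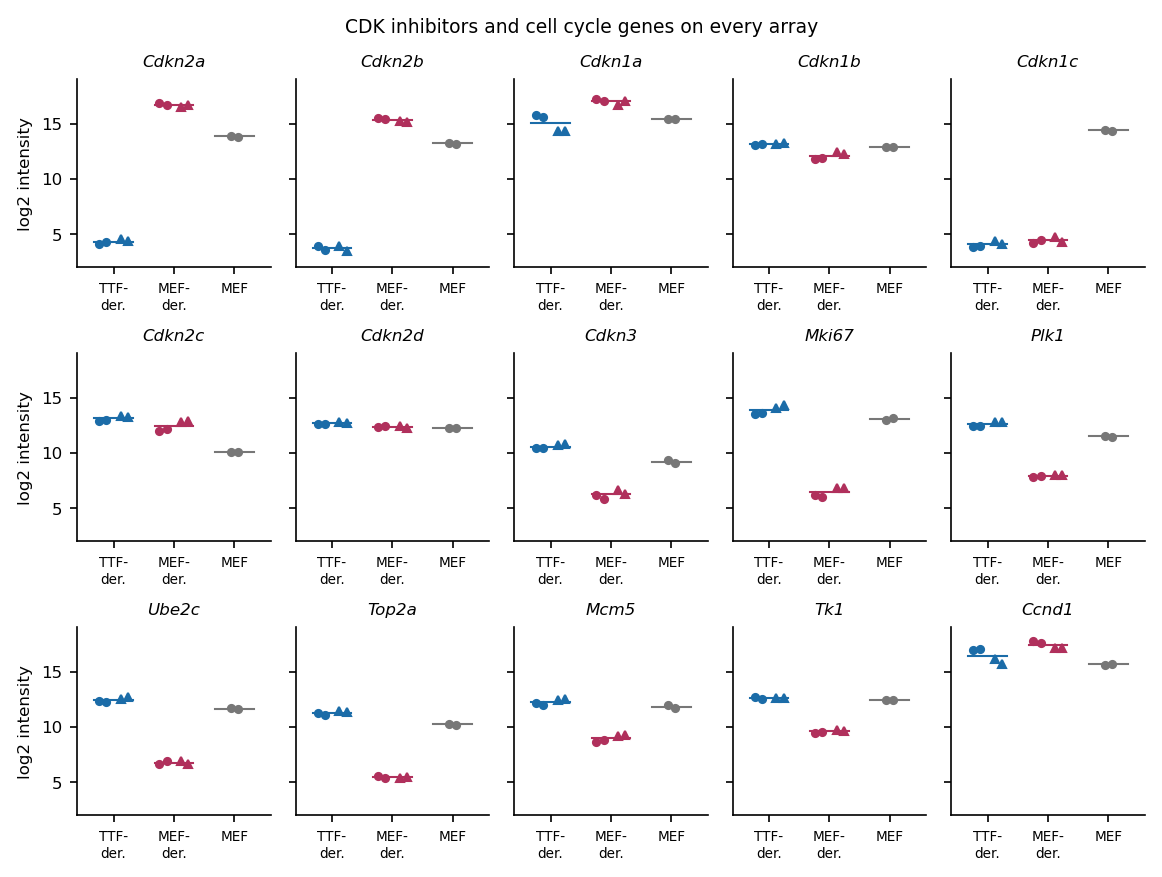
Log2 intensity of 15 CDK inhibitor and cell cycle genes on every array (vertical axis), by group (horizontal axis), with circles for name 1, triangles for name 2 and a line at each group's mean. Cdkn2a and Cdkn2b are at 3.49 to 4.54 on the 4 TTF-derived arrays and at 15.14 to 16.83 on the 4 MEF-derived arrays, and Mki67, Plk1, Ube2c and Top2a lie the other way round.

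Transcripts that p53 induces were lower more often than higher in TTF-derived ieSCs. Of 35 tested, 5 were higher and 17 lower, against 16.8% and 19.3% of all genes, with a median of -0.43. In the averaged fit these counts were 2 and 6. Mdm2, the ubiquitin ligase that p53 induces and that degrades it, stood at 14.55, 14.68, 14.28 and 14.16 on the TTF-derived arrays and at 16.49, 16.57, 15.68 and 15.93 on the MEF-derived arrays, with MEFs at 14.86 and 14.85. That is a difference of -1.75 ± 0.23 (adjusted p = 0.000381), with TTF-derived values close to the MEF level. The membrane protein gene Perp differed by -1.64 ± 0.22, Phlda3 by -1.30 ± 0.15, Gadd45a by -0.91 ± 0.12 and the metabolic regulator Tigar by -0.80 ± 0.10. Among those higher were Btg2 (1.01 ± 0.14) and Gadd45g (7.63 ± 0.67). Sesn2 (-0.05), Aen (-0.44) and Ephx1 (-0.35) were not called.

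Of the 5 factors used for conversion, none was higher and 1 lower between the 2 kinds of ieSC (averaged, 0 and 0). Wt1, a transcription factor of the gonad and kidney, stood at 16.73, 16.85, 17.24 and 17.40 on the TTF-derived arrays, at 16.71, 16.78, 17.47 and 17.52 on the MEF-derived arrays and at 11.47 and 11.50 in MEFs. The ieSC groups overlapped fully (-0.06 ± 0.24, adjusted p = 0.871) and both stood far above MEFs. Dmrt1 (0.26 ± 0.14), Gata4 (-0.16 ± 0.28) and Nr5a1 (0.06 ± 0.12) were not called, at 7.90 and 7.64, 5.61 and 5.77, and 7.26 and 7.20. In MEFs these 3 stood at 8.28, 7.59 and 7.91, no lower than in the ieSCs. Sox9, at 7.48 and 7.96 against 11.18 in MEFs, differed by -0.48 ± 0.15 (adjusted p = 0.0346, but 0.181 averaged), a call also lost without either MEF array, without MEF-derived array 2a or 2b and without TTF-derived array 1b or 2a (-0.48 to -0.42). The labels do not say whether a feature also reads the transgene.

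Markers of fetal Sertoli cells went both ways: 6 of 28 tested were higher and 8 lower (averaged, 3 and 4), with a median of -0.07. Dhh, the hedgehog ligand of Sertoli cells, stood at 13.22, 13.22, 13.17 and 13.18 on the TTF-derived arrays, at 12.28, 12.25, 12.06 and 12.22 on the MEF-derived arrays and at 5.59 and 5.34 in MEFs. Both kinds were thus far above MEFs, and the TTF-derived arrays were higher by 0.99 ± 0.13 (adjusted p = 0.000284). Gatm, a creatine synthesis enzyme found in fetal Sertoli cells, stood at 8.56, 8.58, 8.99 and 9.24 against 12.15, 12.23, 12.34 and 12.31, with MEFs at 6.82 and 6.92. Its level in TTF-derived ieSCs was between those of MEFs and MEF-derived ieSCs, and the difference was -3.41 ± 0.17 (adjusted p = 1.01e-06). The receptor gene Erbb4 showed the same order, at 7.33 to 8.44 against 11.56 to 11.90 and about 5.04 in MEFs (-3.86 ± 0.27). Cst9, a testis cystatin, was at 4.72 against 8.06 (-3.35 ± 0.40), and Nt5e at 13.84 against 15.43 (-1.59 ± 0.21, adjusted p = 0.000393, but 0.0513 averaged). Stmn1, a microtubule regulator also linked to proliferation, was higher by 3.39 ± 0.11, and Trim47 by 1.26 ± 0.10. Ptgds, the prostaglandin D synthase of the Sertoli lineage (1.22 ± 0.47, adjusted p = 0.0705), was not called.

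Of 21 tested genes of mature Sertoli cells and hormone response, 2 were higher and 5 lower (averaged, 1 and 2). Cst12, a cystatin of Sertoli cells, stood at 8.43, 8.55, 9.52 and 9.49 on the TTF-derived arrays, at 12.93, 12.98, 13.81 and 13.82 on the MEF-derived arrays and at 3.36 and 3.21 in MEFs. The difference was -4.39 ± 0.33 (adjusted p = 1.07e-05), while both kinds were above MEFs. Transferrin (Trf), which carries iron to germ cells, differed by -2.48 ± 0.34 (adjusted p = 0.000438, but 0.0543 averaged) and the homeobox gene Rhox5 by -2.04 ± 0.46 (adjusted p = 0.00709, but 0.134 averaged). Rhox5 was also not called without both arrays of MEF-derived name 1, at -1.87. Espn, an actin bundler of Sertoli junctions, was higher by 1.84 ± 0.15. The anti-Müllerian hormone gene Amh and the hormone receptor gene Fshr did not pass the filter, at means of 4.1 and 3.82 in TTF-derived and 4.74 and 3.18 in MEF-derived ieSCs, so these defining markers were dim on nearly all arrays of both kinds.

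Ligands and receptors of the germ cell niche were lower in 10 and higher in 3 of 26 (averaged, 5 and 1), with a median of -0.40. Gdnf, the ligand that keeps spermatogonial stem cells, stood at 12.47, 12.28, 12.14 and 11.78 against 13.80, 13.74, 13.55 and 13.46, with MEFs at 9.29 and 9.30. That was a difference of -1.47 ± 0.20 (adjusted p = 0.000379) between 2 levels that both exceed the MEFs. Vegfa and Vegfc, growth factors for vessels and lymphatics, differed by -0.88 ± 0.09 and -2.61 ± 0.33. Inhba, which encodes the activin A chain, differed by -2.95 ± 0.51 (adjusted p = 0.00182, but 0.085 averaged). Of the phagocytosis receptors with which Sertoli cells clear dying germ cells, Mertk was higher by 1.99 ± 0.21 and Tyro3 lower (-1.52 ± 0.13), and their ligand Pros1 was lower (-1.22 ± 0.16). Axl (-0.20 ± 0.14), Gas6 and Csf1 were not called.

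Among 23 transcription factors and regulators of the early gonad, 8 were higher and 4 lower (averaged, 7 and 1). Maf, a leucine zipper factor of gonadal and mesenchymal cells, stood at 10.97, 10.83, 10.58 and 10.87 against 4.28, 3.92, 3.97 and 3.36, with MEFs at 11.92 and 11.89. Gadd45g, needed for timely Sry expression in the fetal gonad, stood at 15.18, 15.08, 13.61 and 13.39 against 7.81, 7.84, 5.60 and 5.48, with MEFs at 17.00 and 16.68. For both genes the TTF-derived arrays were nearer to the MEF level. The difference was 7.63 ± 0.67 for Gadd45g and 6.93 ± 0.29 for Maf, whose other feature differed by 1.62. Fst, an activin antagonist, was higher by 3.09 ± 0.14, Zfpm2, the cofactor of Gata4, by 1.62 ± 0.17 and the Polycomb gene Cbx2 by 1.04 ± 0.14. Nr2f2 was lower (-1.75 ± 0.17). Foxl2 and Rspo1, genes of the ovarian side, were not called (-0.04 and -0.34).

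Retinoic acid and hedgehog genes were higher in 8 and lower in 4 of 27 (averaged, 3 and 3). Aldh1a2, which makes retinoic acid, was higher by 3.06 ± 0.26, at 8.83 against 5.77, and the retinoic acid receptor gene Rarb was lower (-2.26 ± 0.25), as was the binding protein gene Crabp2 (-1.01 ± 0.15). Although the ligand Dhh was higher, the hedgehog receptor and target gene Ptch1 was lower (6.62 against 8.02, -1.40 ± 0.18, other feature -0.68 and not called). The signal transducer Smo was higher by 0.69 ± 0.15 (other feature 0.23, not called). Of 16 steroid synthesis genes none was higher and 6 were lower, with 3 lower in the averaged fit. Hsd11b1, which regenerates active glucocorticoid, stood at 5.76 to 6.54 against 9.57 to 10.43 (-3.73 ± 0.31), with all 10 features between -3.98 and -3.09. Hsd17b7 differed by -3.04 ± 0.11, and Akr1c18, which inactivates progesterone, by -2.77 ± 0.54 from 17.09 (adjusted p = 0.00351, but 0.0986 averaged).

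Imprinted genes, expressed from 1 parental copy, included some of the widest gaps between the 2 kinds of ieSC. As a list they were called no more often than other genes, at 34.2% of tested members against 36.0% of all genes. Of 38 tested, 5 were higher and 8 lower (averaged, 3 and 2), with a median of 0.12. Mest, an imprinted gene of mesoderm, stood at 4.77, 4.54, 4.58 and 4.02 on the TTF-derived arrays, at 13.23, 13.38, 12.47 and 12.45 on the MEF-derived arrays and at 15.83 and 15.91 in MEFs. It was at the dim end on all 4 TTF-derived arrays (-8.41 ± 0.31, adjusted p = 1.3e-07), with its 12 features between -8.66 and -3.59. Grb10, an adaptor that restrains insulin and IGF receptors, showed the same order, at 4.21, 4.21, 3.50 and 4.02 against 9.68, 9.92, 10.10 and 10.28 and 12.45 and 12.46 in MEFs (-6.01 ± 0.25). Plagl1, a zinc finger gene at the centre of the imprinted network, ran the other way, at 13.06, 12.86, 13.87 and 13.71 against 5.93, 5.95, 4.74 and 4.89, with MEFs at 16.92 and 16.84. Its difference was 8.0 ± 0.35 on the feature taken, and its 4 features ran from 0.07 to 8.0. Peg3 was higher by 2.17 ± 0.16. H19 stood at 9.83 and 7.55 against 18.36 in MEFs (2.28 ± 0.40, adjusted p = 0.00179, but 0.0808 averaged). Airn and Igf2r, which overlap on opposite strands, differed by 1.71 ± 0.25 and -1.07 ± 0.18 (adjusted p = 0.0616 and 0.0676 averaged).

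Most of the called Hox genes lay in the A and D clusters, and the genes of the B and C clusters were mostly dim in both kinds of ieSC. Of 24 tested anterior and central Hox genes 6 were higher and 2 lower, and of 10 posterior ones 4 were higher and 1 lower (averaged, 4 and 1, and 2 and 0). Hoxa11, a posterior gene of limb and reproductive tract, stood at 13.07, 13.07, 12.53 and 12.57 against 10.19, 10.17, 10.53 and 10.63, with MEFs at 10.26 and 10.32. The TTF-derived arrays were higher by 2.43 ± 0.17 (adjusted p = 8.62e-06), and its 10 features ran from 2.39 to 2.53. Its neighbour Hoxa10 (1.05 ± 0.11) and the antisense RNA Hoxa11os (2.23 ± 0.15) were higher too, and whether sense and antisense signals are apart on these features was not tested. At the other end of the cluster Hoxa2, Hoxa3 and Hoxa5 were higher by 2.39 ± 0.19, 1.93 ± 0.14 and 1.07 ± 0.11, whereas Hoxa7 (-0.20), Hoxa4 (-0.25), Hoxa9 (0.35) and Hoxa13 (0.41) were not called. Hoxa6 (1.04 ± 0.33, adjusted p = 0.037) lost its call without MEF-derived array 2b and without TTF-derived array 1a, 1b or 2a, at 0.90 to 1.05.

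In the D cluster Hoxd3 (1.70), Hoxd4 (1.43), Hoxd10 (0.78) and Hoxd11 (0.73) were higher and Hoxd13 was lower (-1.02 ± 0.16), and none of these 5 was called in the averaged fit (adjusted p from 0.0622 to 0.175). Without both arrays of MEF-derived name 1, Hoxd10 (0.80) and Hoxd11 (0.63) were not called, nor was Hoxd11 without both arrays of TTF-derived name 2 (0.36). Hoxd8, Hoxd9 and Hoxd12 were not called. Of the B and C genes, Hoxb9 was lower (4.64 against 6.41 and 11.54 in MEFs, -1.76 ± 0.26), also in the averaged fit (adjusted p = 0.0105). Hoxc6 (-1.17 ± 0.37, adjusted p = 0.0328, but 0.134 averaged) also lost its call without MEF-derived array 1a, 1b or 2b and without TTF-derived array 1a, 1b or 2a, at -1.19 to -1.03. Hoxb2, Hoxb4, Hoxb5, Hoxb7, Hoxb8, Hoxc4, Hoxc5, Hoxc8, Hoxc9, Hoxc10, Hoxc11 and Hoxc13 had means from 3.54 to 4.90 in both kinds of ieSC and from 5.48 to 12.39 in MEFs, and were not called. Hoxb3 (6.21 and 5.57) and Hoxb6 (5.89 and 6.26) were not called either. Among 53 other genes of limb, trunk and tail position, 5 were higher and 7 lower (averaged, 4 and 3). Foxc2 stood at 3.58 to 4.06 against 6.99 to 7.39 (-3.37 ± 0.23), Tbx3 differed by -1.27 ± 0.11, and Osr2 and Foxf2 were higher by 2.48 ± 0.23 and 1.92 ± 0.17. Meis1, Meis2 and Msx1 were not called.

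**Figure D3:**
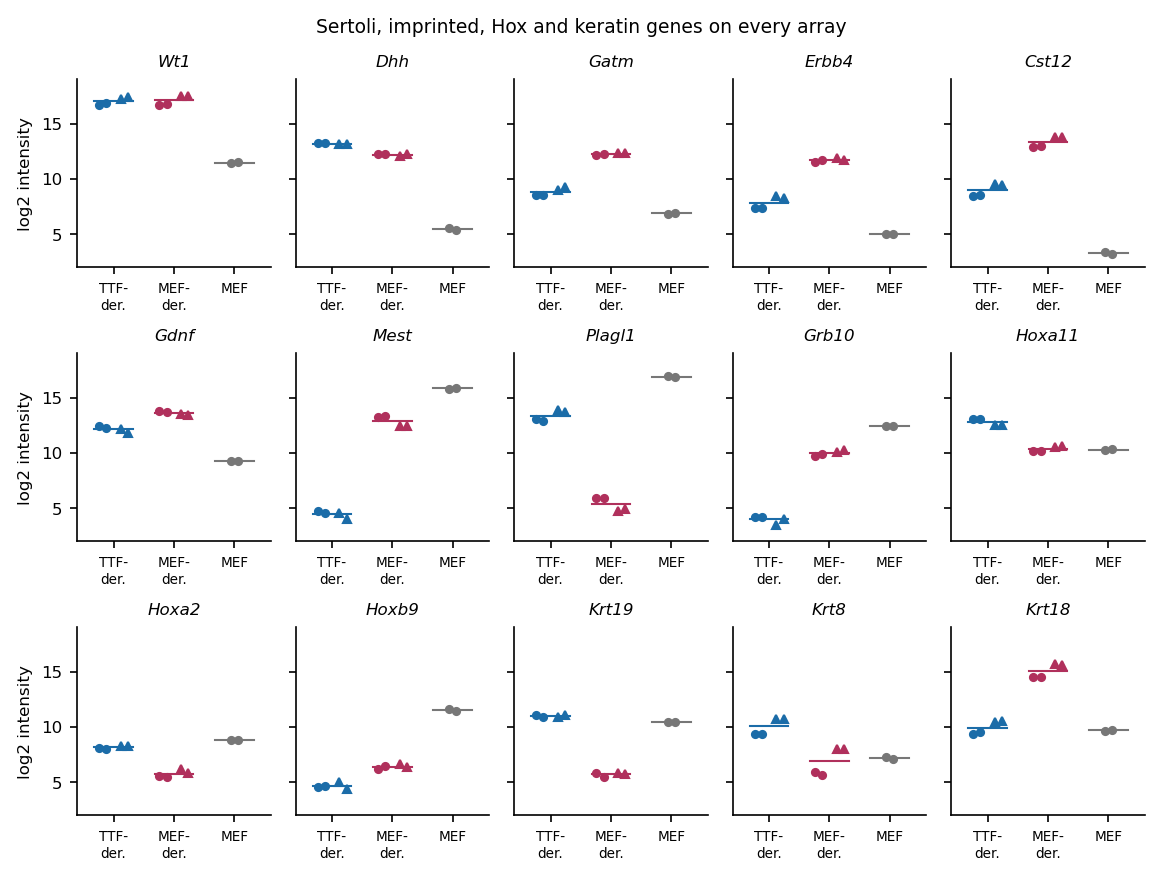
Log2 intensity of 15 Sertoli, imprinted, Hox and keratin genes on every array (vertical axis), by group (horizontal axis), with circles for name 1, triangles for name 2 and a line at each group's mean. Wt1 overlaps between the 2 kinds of ieSC, Mest and Grb10 are at 3.50 to 4.77 on the TTF-derived arrays only, and Plagl1 is at 4.74 to 5.95 on the MEF-derived arrays only.

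Runs of neighbouring genes that differed in the same direction included some clusters of related genes. Along the chromosomes, 40 runs of at least 3 tested neighbours differed at least 2-fold in the same direction, 19 higher and 21 lower, with 132 genes in all. Of the 8 runs of 4 or more genes, 6 were lower in TTF-derived ieSCs. The rule takes only neighbours that share a direction, so moving together is no result of it. Many runs hold genes of no common family, such as Pacc1, Ppp2r5a and Dtl or Bmf, Bub1b and Pak6. The runs were not set against chance, and close copies can share signal on an array. A run on chromosome 13 held Serpinb1b, Serpinb9c, Serpinb9d, Serpinb9e, Serpinb9f and Serpinb9g, serine protease inhibitor genes, between -7.83 and -1.62. Serpinb9e stood at 6.52, 6.73, 6.0 and 6.21 on the TTF-derived arrays, at 13.93, 14.12, 14.30 and 14.30 on the MEF-derived arrays and at 4.43 and 3.98 in MEFs (-7.80 ± 0.24). Serpinb9f and Serpinb9g differed by -7.83 ± 0.20 and -7.47 ± 0.26, and the RefSeq promoters of these 3 genes are identical at 92.3% to 94.7% of 300 positions. Serpinb9 itself, the inhibitor of granzyme B, differed by -0.75 ± 0.09, at 13.54 against 14.29. Its promoter is identical to theirs at 57.3% to 59.3% of positions. Whether promoter likeness goes with the size of a difference was not tested. Of 32 tested Serpinb, granzyme and Ctla2 genes 1 was higher and 16 were lower, against 19.3% of all genes (averaged, 0 and 9), with a median of -1.24.

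Granzyme genes differed between the names of an origin as well. Gzmc, a granzyme of lymphocytes and placenta, stood at 5.90, 5.79, 4.89 and 4.17 on the TTF-derived arrays and at 14.40, 14.29, 9.90 and 9.67 on the MEF-derived arrays. MEF-derived name 1 was thus far above name 2, and the difference of -6.88 ± 1.14 (adjusted p = 0.00137) was not called in the averaged fit (adjusted p = 0.0758). Gzme, chosen after its values were seen, showed the same pattern, at 14.45 and 14.37 for MEF-derived name 1 and at 7.33 and 7.37 for name 2 (adjusted p = 0.026, but 0.214 averaged).

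Another run on chromosome 6 held the lectin receptor genes Klra4, Klra8, Klra9, Klra7, Klra1 and Klra2, between -4.15 and -1.07. Klra4 stood at 8.52, 8.59, 9.20 and 9.04 against 13.39, 13.30, 12.69 and 12.56, with MEFs at 5.95 and 5.48. Klra receptors are known from natural killer cells. Klra9 was not called averaged (adjusted p = 0.0716), and the other features of Klra7 and Klra1 differed by -1.41 and -0.61, the latter not called. Placental prolactin-family genes on chromosome 13 formed 2 runs, with Prl8a9 at -4.29 ± 0.39. Cornified envelope genes on chromosome 3 formed 3 lower runs, of Lce1f to Lce1i, of Sprr2e, Sprr2f and Sprr2h, and of Sprr2k, Sprr1b and Sprr3. Lce1g, at 7.21, 7.28, 3.65 and 3.22 against 13.86, 13.83, 9.32 and 9.37, differed by -6.25 ± 1.38 (adjusted p = 0.00661, but 0.132 averaged, and -4.35 without both arrays of TTF-derived name 2, where it was not called). Here name 1 was above name 2 in both origins. The glutathione transferase genes Gsta4, Gsta1, Gm10639 and Gsta2 on chromosome 9 were lower (-3.0 to -1.75), and so were 4 replication-dependent histone genes on chromosome 13, H3c7, H1f3, H2ac8 and H2bc8 (-1.83 to -1.07). These 4 histone genes were picked by the run rule, which takes neighbours that share a direction, and histone genes as a group were not counted. Gsta4, Gsta2, H2bc8, Lce1f, Lce1i and Sprr2k were not called averaged (adjusted p from 0.0588 to 0.173). Runs that were higher included Fgf21, Fut1, Rasip1 and A030001D20Rik on chromosome 7 (1.28 to 3.48) and the chemokine genes Cxcl5, Ppbp and Pf4 on chromosome 5 (2.24 to 5.43), of which Pf4 was not called averaged (adjusted p = 0.19).

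**Figure D4:**
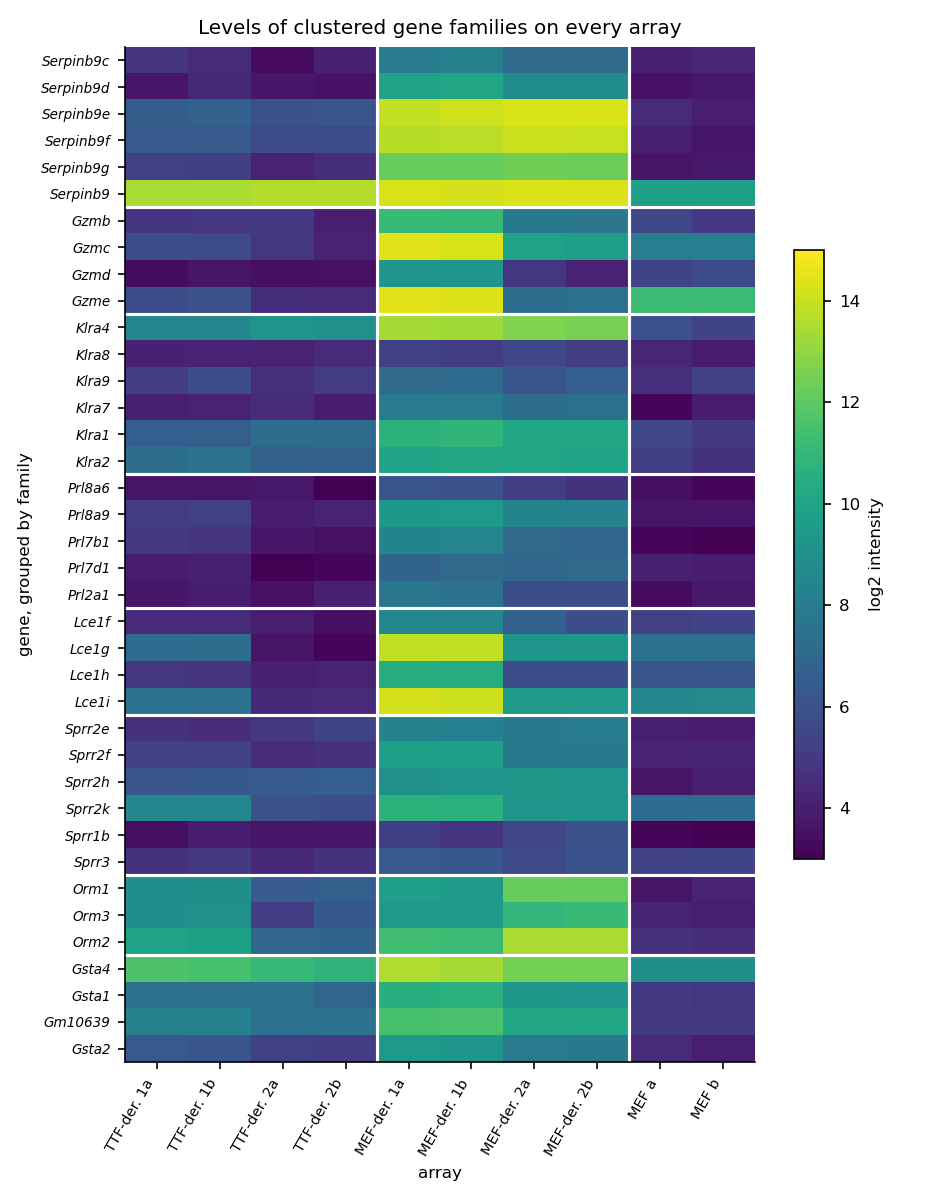
Log2 intensity (colour, from 3 to 15) of 38 genes in 8 families (rows) on the 10 arrays (columns). The Serpinb9c to Serpinb9g rows are bright on the 4 MEF-derived arrays and dark on the TTF-derived and MEF arrays, and the Gzmc, Lce1g and Orm2 rows also differ between name 1 and name 2.

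Keratins differed in both directions. Krt18, a keratin of simple epithelia and fetal Sertoli cells, stood at 9.33, 9.53, 10.40 and 10.51 on the TTF-derived arrays and at 14.53, 14.50, 15.67 and 15.61 on the MEF-derived arrays, with MEFs at 9.66 and 9.71. Its usual partner Krt8 ran the other way, at 9.38, 9.36, 10.74 and 10.71 against 5.88, 5.64, 8.02 and 8.05. Krt19 stood at 11.06, 10.91, 10.88 and 11.12 against 5.79, 5.43, 5.84 and 5.77. Krt18 was thus lower (-5.13 ± 0.37, adjusted p = 9.14e-06), and Krt19 was higher by 5.29 ± 0.18 (adjusted p = 7.52e-08) and Krt8 by 3.15 ± 0.63 (adjusted p = 0.00378, but 0.107 averaged). Krt13 was higher by 3.20 ± 0.16, with its other feature at -0.11. Of 48 simple epithelial, junction and desmosome genes 8 were higher and 5 lower (averaged, 2 and 2), and Lsr, of tricellular junctions, was higher by 3.82 ± 0.46. Keratinocyte and cornified envelope genes were lower in 11 and higher in 4 of 33 (averaged, 6 and 3). The basal keratinocyte genes Krt5 (6.61 and 6.60) and Trp63 (11.31 and 11.36) were not called, nor was Krt14 (10.04 and 10.39).

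Fibroblast and mesenchymal markers were split, 9 higher and 9 lower of 47 tested, with a median of -0.01, and 5 and 0 in the averaged fit. The called share was 38.3%, close to the 36.0% of all genes. The defining marker Fap was at 3.62 to 4.09 on the TTF-derived and at 3.22 to 3.73 on the MEF-derived arrays, against 12.97 and 12.84 in MEFs, and Twist1 was at 2.82 and 3.55 against 11.65. Col1a2 stood at 7.66 and 7.72 against 18.70. These 3 genes were near the dim end or well below MEFs in both kinds of ieSC, and none was called between them. Pdgfra, set as a marker in the same way, was called, as given below, and Thy1 and Prrx1 are not given here. The marker Col1a1 stayed bright, at 16.74 and 17.03 against 17.34 in MEFs, and was not called either. Fbln1, a fibulin of elastic matrix, stood at 13.65, 13.67, 13.35 and 13.54 against 6.42, 6.66, 7.24 and 7.14, with MEFs at 13.57 and 13.69, a difference of 6.69 ± 0.21. Pdgfra (2.26 ± 0.20), the growth factor receptor of mesenchyme, elastin (Eln, 2.77 ± 0.27), Ogn (2.31 ± 0.24) and Fstl1 (1.86 ± 0.28) were higher as well. Fibrillin-1 (Fbn1) stood at 10.13, 10.02, 7.46 and 7.60 against 13.21, 13.16, 13.23 and 13.24 (-4.41 ± 0.60, adjusted p = 0.00045, but 0.057 averaged). Genes of skin dermis and hair papilla were higher in 7 and lower in 8 of 32 (averaged, 3 and 4), with Cygb, a globin of fibroblasts, at 3.03 ± 0.27 and Efemp1 at -4.24 ± 0.59 (adjusted p = 0.000488, but 0.059 averaged). The most abundant fibroblast markers, Sparc (18.76 and 18.83), Fn1 (18.12 and 18.13) and Dcn (18.70 and 17.72), were not called.

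Markers of other cell types were called in 17.9% (macrophage) to 38.5% (muscle, and chondrocyte, bone and fat) of tested members, against 36.0% of all genes. Of 28 macrophage markers 1 was higher and 4 lower (averaged, 0 and 2), and their median level was 5.52 and 5.55 in the ieSC groups against 11.74 in MEFs. Adgre1, a defining macrophage gene, stood at 6.10 and 6.27 against 10.51 in MEFs, and was not called. Trem2 was lower, at 11.28 against 13.14 (-1.86 ± 0.09). Mesothelial markers were higher in 4 and lower in 3 of 24 (averaged, 2 and 0), and Msln was at 17.78 to 18.23 and 18.13 to 18.47, not called. Trophoblast genes were higher in 3 and lower in 4 of 21 (averaged, 0 and 4), the lower ones including Prl8a9 and Serpinb9e. Of 13 endothelial markers 1 was higher and 2 lower (averaged, 1 and 3), with Tek at 3.19 ± 0.40, Cd93 at -4.09 ± 0.23 and Flt1 at -2.37 ± 0.20 (its other feature at -0.34, not called), while Cdh5 did not pass the filter (4.34 and 4.52). Muscle genes were lower in 8 and higher in 2 of 26 (averaged, 2 and 0). Acta2, smooth muscle actin, was lower by 2.00 ± 0.27 on the log2 scale from 17.77, and Tnnc1 by 1.61 ± 0.19, while Myod1 (5.95 and 6.04) and Pax7 were not called. Of 26 chondrocyte, bone and fat genes 2 were higher and 8 lower (averaged, 1 and 5), with Spp1, osteopontin, at 14.84 against 17.40 (-2.57 ± 0.21). Of 16 germ cell and pluripotency genes 1 was higher and 2 lower (averaged, 0 and 1), and Pou5f1 and Dazl were at 4.93 and 3.6 in TTF-derived ieSCs. The germ cell marker Ddx4 was above the dim end and lower, at 6.65 against 8.10 (-1.45 ± 0.22), with MEFs at 8.02. Of 24 neuronal cytoskeleton and neural genes 1 was higher and 6 lower (averaged, 1 and 3). Prph, a neuronal intermediate filament, stood at 17.31, 17.00, 16.73 and 16.71 against 14.81, 14.84, 14.55 and 14.39 and at 5.22 and 5.12 in MEFs (2.29 ± 0.19).

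Lower calls outnumbered higher ones among integrins, collagens and matrix proteases, as they did over all genes (19.3% lower and 16.8% higher), but not among laminins. Integrins and adhesion receptors were lower in 16 and higher in 4 of 35 (averaged, 6 and 3), with a median of -0.50. Itgb1, the beta chain shared by most matrix-binding integrins, stood at 13.33, 13.35, 13.13 and 13.26 against 15.10, 15.24, 14.62 and 14.61, with MEFs at 14.46 and 14.58. TTF-derived arrays were below both other groups (-1.63 ± 0.17, adjusted p = 8.76e-05). Itga4 differed by -3.07 ± 0.18, Ncam1 by -2.04 ± 0.12 and Itgb3 by -1.43 ± 0.15, while Alcam, Vcam1 and the protocadherin gene Pcdh7 were higher by 3.90 ± 0.34, 2.46 ± 0.29 and 5.72 ± 0.49, with the 3 features of Pcdh7 between 1.11 and 5.72. Of 39 collagen chains 5 were higher and 11 lower (averaged, 1 and 5). The basement membrane chain Col4a1 differed by -1.77 ± 0.18, with its 10 features between -1.77 and -1.51, and Col18a1 by 2.55 ± 0.34. Col1a1 (16.74 and 17.03) and Col3a1 (17.95 and 18.08) were not called. Laminins went both ways, with Lama1 (-3.49 ± 0.19) and Lama3 (-1.71 ± 0.18) lower and Lamb1 (3.56 ± 0.24) higher, in a list with 5 higher and 5 lower of 26 (averaged, 2 and 4). Matrix proteases and inhibitors were lower in 15 and higher in 6 of 42 (averaged, 10 and 3), with the lower ones including the aggrecanases Adamts5 (-5.10 ± 0.46) and Adamts4 (-4.81 ± 0.30), the plasminogen activator Plat (-1.57 ± 0.14) and Timp1 (-1.37 ± 0.12).

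Signalling genes differed in ligands, receptors and inhibitors alike. Their lists had 42.9% (Wnt) to 54.9% (TGF-beta, BMP and activin) of tested members called, against 36.0% of all genes. Of 56 Wnt genes 16 were higher and 8 lower (averaged, 9 and 3). Ror2, the receptor of Wnt5a, stood at 10.13, 9.94, 9.69 and 9.71 against 3.41, 3.80, 3.88 and 4.08, with MEFs at 12.84 and 12.75 (6.08 ± 0.21). The ligand Wnt10a was higher by 2.93 ± 0.27 and the secreted inhibitor Sfrp1 by 3.39 ± 0.40, while the inhibitors Wif1 and Sfrp5 were lower (-3.77 ± 0.33 and -2.42 ± 0.17). TGF-beta, BMP and activin genes were higher in 12 and lower in 16 of 51 (averaged, 5 and 5). Tgfbi, a matrix protein that TGF-beta induces, stood at 11.02, 10.92, 11.14 and 11.19 against 5.95, 5.96, 6.30 and 5.99 (5.02 ± 0.15), with MEFs higher still at 16.48 and 16.41. The latent TGF-beta binding proteins Ltbp4 and Ltbp3 were higher by 2.76 ± 0.32 and 1.96 ± 0.16, and the BMP receptor gene Bmpr1b was lower (-1.92 ± 0.18). Smad3, Id1 and Id3 were not called (-0.06, 0.08 and 0.28).

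Of 51 FGF, EGF and IGF genes 8 were higher and 15 lower (averaged, 5 and 5). Egfr was higher by 2.16 ± 0.15, with all 12 features between 1.31 and 2.31, and Fgf21 by 3.48 ± 0.26, while the growth factors Hgf and Fgf1 were lower (-3.19 ± 0.29 and -2.29 ± 0.26, with the other feature of Fgf1 at -0.62). Notch genes were lower in 9 and higher in 2 of 24 (averaged, 5 and 0). The receptor gene Notch3 differed by -1.66 ± 0.21 and the targets Hey1 and Hey2 by -1.97 ± 0.18 and -2.66 ± 0.17, while Jag1 and Notch2 were not called. Axon guidance genes were higher in 16 and lower in 11 of 58 (averaged, 6 and 5), with Slit3 at 3.95 ± 0.16 and Sema4f and Sema3g at -4.63 ± 0.52 and -4.27 ± 0.17, and the other feature of Sema3g at -1.95. The largest rise of the whole comparison was in a transport gene. Atp1b1, the beta subunit of the sodium pump, stood at 13.90, 13.77, 14.86 and 14.78 on the TTF-derived arrays and at 4.37, 4.21, 4.31 and 4.24 on the MEF-derived arrays, with both MEF arrays at 13.17. It was at the dim end on all 4 MEF-derived arrays (10.05 ± 0.25, adjusted p = 2.77e-08), while Atp1b3, another beta subunit, was not called (13.44 and 13.31). Of 23 ion transport genes 7 were higher and 5 lower (averaged, 6 and 2), among them Fxyd3 (3.06 ± 0.31), a regulator of the pump, and the carbonic anhydrase Car9 (3.04 ± 0.33).

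Immune genes went both ways, as did all genes (16.8% higher and 19.3% lower). The share of tested members called was 43.1% for chemokines, cytokines and inflammatory genes and 35.6% for interferon response genes. It was 51.9% for MHC class I and antigen presentation genes and 26.9% for complement genes, against 36.0% of all genes. Chemokines, cytokines and inflammatory genes were higher in 12 and lower in 13 of 58 (averaged, 5 and 9). S100a8, a calcium-binding protein of neutrophils, stood at 6.26, 5.93, 6.25 and 6.30 against 11.70, 11.70, 12.20 and 12.14, with MEFs at 4.72 and 4.66 (-5.75 ± 0.18). Ccl8 and Lcn2 were lower (-3.22 ± 0.22 and -2.56 ± 0.12), and Cxcl5, at 12.11, 12.22, 9.54 and 9.71 against 5.28, 4.95, 5.76 and 5.86, was higher (5.43 ± 0.63). Ccl2 and Cxcl11 were not called. Of 45 interferon response genes 9 were higher and 7 lower (averaged, 4 and 2). MHC class I and antigen presentation genes were higher in 10 and lower in 4 of 27, but 2 and 0 in the averaged fit, with Cd1d1 (1.60 ± 0.16) and the immunoproteasome gene Psmb9 (1.55 ± 0.19) among the higher ones. Complement genes were higher in 6 and lower in 1 of 26, and 1 and 0 in the averaged fit. C4b stood at 14.17, 13.93, 13.63 and 13.41 against 10.01, 10.09, 11.86 and 11.77 (2.85 ± 0.45, adjusted p = 0.00107, but 0.0698 averaged).

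Metabolic lists were mixed, with 27.3% (oxidative phosphorylation) to 60.4% (xenobiotic and NRF2 targets) of tested members called, against 36.0% of all genes. Hypoxia and glycolysis genes were higher in 10 and lower in 13 of 43 (averaged, 4 and 6). Adm, a vasodilator peptide that hypoxia induces, was higher by 4.55 ± 0.32 and the lactate exporter Slc16a3 by 2.71 ± 0.13, while Vegfa was lower, as given above, and the abundant enzymes Aldoa, Gapdh and Gpi1 were not called. Oxidative phosphorylation genes were lower in 10 and higher in 2 of 44, with a median of -0.18 and 1 each in the averaged fit. Cholesterol and fatty acid synthesis genes were lower in 7 and higher in 2 of 30 (averaged, 4 and 1), with the cholesterol exporter Abcg1 at -3.40 ± 0.27 and Dhcr7 at -1.08 ± 0.13. Xenobiotic and NRF2 target genes were higher in 14 and lower in 18 of 53 (averaged, 8 and 7). Gstt1, Gstm1 and the cystine importer Slc7a11 were higher by 3.25 ± 0.17, 2.10 ± 0.21 and 2.62 ± 0.28, while heme oxygenase (Hmox1) was lower (-1.72 ± 0.16). DNA methylation and Polycomb genes were higher in 13 and lower in 3 of 31, and 4 and 0 in the averaged fit.

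**Figure D5:**
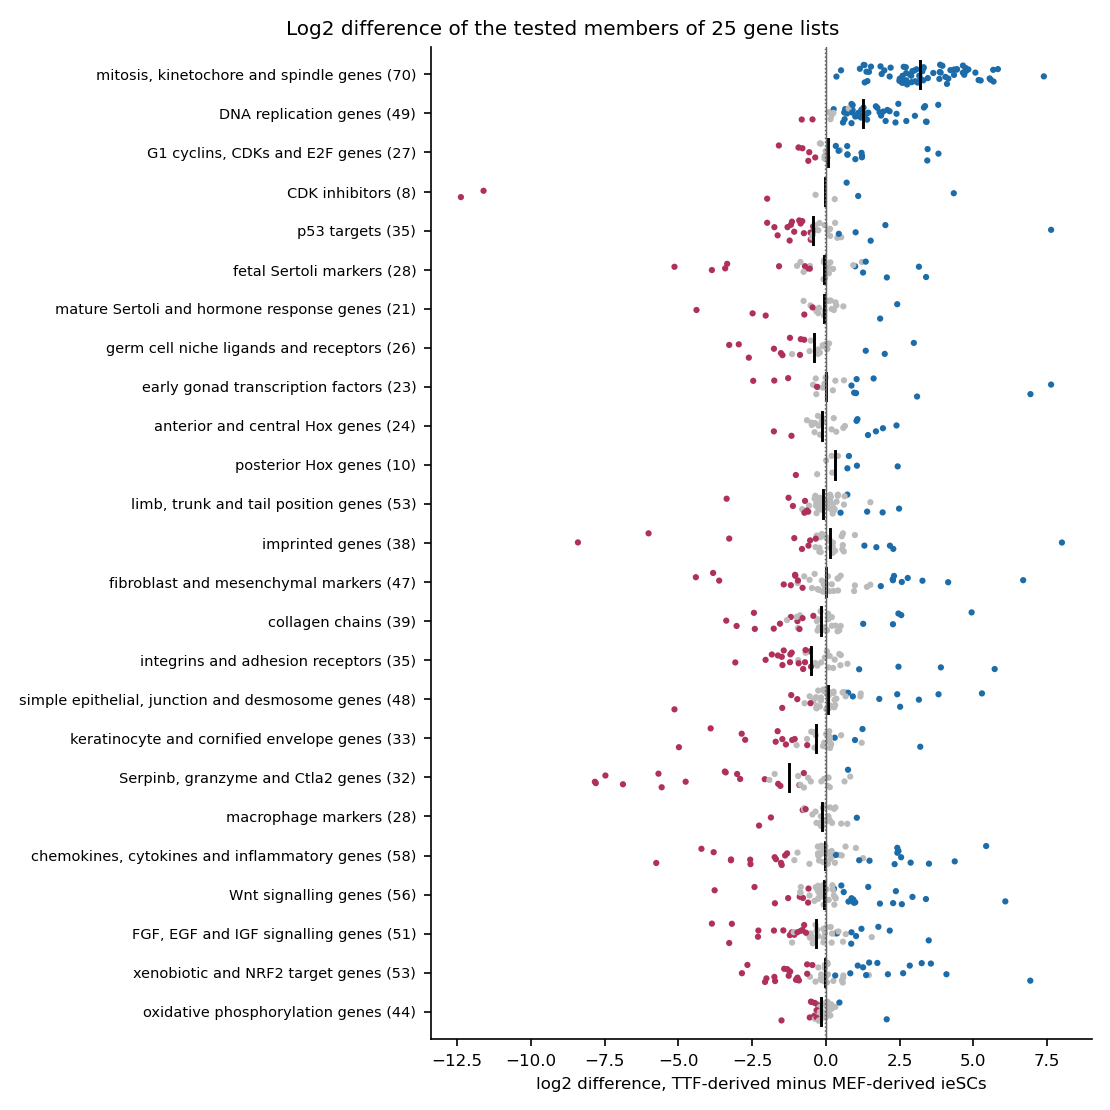
Log2 difference, TTF-derived minus MEF-derived ieSCs (horizontal axis), of every tested member of 25 gene lists (rows, with the number of tested members), with called members in blue (higher) or red (lower), others in grey and a black tick at the median. The mitosis list lies wholly to the right with a median of 3.18, the replication list follows at 1.24, and the Serpinb, granzyme and Ctla2 list has its median at -1.24.

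Of 6 tested sex-linked genes 1 was higher (averaged, none), against 16.8% of all genes. Xist, the RNA of the inactive X chromosome, stood at 3.77 to 4.35 on the TTF-derived arrays, 3.41 to 4.60 on the MEF-derived arrays and 9.31 to 9.37 in MEFs. The Y-linked gene Eif2s3y was at 3.42 to 4.01, 3.16 to 3.83 and 10.29 to 10.33. Both were dim in both kinds of ieSC, so neither the labelled female origin of the TTFs nor the sex of the MEF-derived cells shows in these features. The called gene was Kdm6a, a histone demethylase that escapes X inactivation (0.88 ± 0.24, adjusted p = 0.0188, but 0.121 averaged, and not called without both arrays of MEF-derived name 1, at 0.54, or TTF-derived name 2, at 0.73).

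Chromosomes 15, 17 and 19 differed from the rest in the median over their genes, and position along a chromosome was not examined. Over the 16635 genes placed on chromosomes the median difference was -0.045, and 46.0% of differences were above 0. On chromosome 15 the median over 670 genes was 0.223, with 67.2% above 0, 35.5% called higher and 7.31% lower. On chromosome 19 it was 0.232 over 559 genes, with 68.2% above 0, 35.6% higher and 9.12% lower. Chromosome 17 ran the other way, with -0.265 over 834 genes, 28.9% above 0, 8.87% higher and 35.6% lower. The medians of the other 17 chromosomes lay between -0.097 (X) and 0.0 (18). Against the mean of all 8 ieSC arrays, the TTF-derived arrays had chromosome 15 medians of 0.121 to 0.141 and the MEF-derived arrays of -0.145 to -0.119, so the shift was present on every array. The same held for chromosome 19 (0.102 to 0.131 against -0.136 to -0.113) and chromosome 17 (-0.172 to -0.125 against 0.118 to 0.168). Set against MEFs, which both differences share, the medians for chromosome 15 were 0.673 in TTF-derived and 0.346 in MEF-derived ieSCs, for chromosome 19 0.353 and 0.13, and for chromosome 17 0.158 and 0.413, while over all genes they were 0.06 and 0.101. Genes on a chromosome are not independent, and no test was made of these medians.

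The MEF level lay nearer to TTF-derived than to MEF-derived ieSCs for 54.8% of all genes tested. Among genes at least 2-fold higher in TTF-derived ieSCs this share was 58.7%, and among those at least 2-fold lower it was 64.4%, although MEFs are the labelled source of the other group. The MEF level lay between the 2 kinds of ieSC for 46.0% of the higher and 35.4% of the lower genes, against 21.2% of all. The Serpinb, granzyme and Ctla2 list is an example of levels that MEFs do not have: 10 of its 14 members called at least 2-fold had MEF levels beyond the TTF-derived side.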

How the data were processed

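The values used are the log2 intensities that the authors deposited for 10 single-colour arrays. The submitters' processing notes name limma, without a version, and the background correction, the normalization and the scanner software are not given in the sources used here. The deposited columns had medians of 5.759 to 5.782, and their sorted values above the 40th percentile differed by at most 0.0379, as after quantile normalization, so they were not normalized again. Detection flags were not used here, so the number of arrays limits the precision. Of 62976 features, 31465 had a gene symbol in the platform annotation and 31511 had none, and 3282 symbols were updated through RefSeq accessions or synonyms (29050 accessions matched).

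Dim features were dropped unless at least 2 arrays put them above the 40th percentile, and the kept feature with the highest mean stood for its gene, which left 16650 of 20738 named genes. Group means of all 10 arrays were fitted with limma 3.58.1 in R 4.3.3 and statmod 1.5.0, with the name shared by 2 arrays as a random block (correlation 0.6057, residual df 7), and p-values were adjusted by Benjamini-Hochberg over all genes. The procedure was tested on simulated data. The members and the 49 gene lists (1669 genes, 1469 tested) were chosen with earlier results of these data known. Named genes were the 15 largest rises and falls among called genes whose groups did not overlap, up to 8 called and 3 abundant uncalled members of each list, all members of lists of up to 10 genes and of the Hox lists, all genes of runs, sex-linked genes and cell type markers. Runs count tested genes in RefSeq order (GRCm38.p6), from which promoters were also taken. Apart from these promoters, no genome sequence was used here, and no protein sequence. The alternatives tried were other filters, scalings, feature choices and blocks, averaging, and leaving out arrays or names, 24 in all.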

Additional observations from a re-analysis of the deposited data

Results flagged for a closer look

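In 11 of 602 combinations of a named gene and an ieSC group, the highest or lowest of the 4 arrays stood apart from the other 3 by a share of the group's range above Dixon's critical value. That critical value gives about 1 in 20 such groups for 4 independent values. The arrays here come in pairs of a name, so this rate need not apply and the number was not set against chance. Array 2b of the MEF-derived ieSCs stood apart for Eif2s3y (3.16, others 3.78 to 3.83), Fap (3.22, others 3.68 to 3.73), Spp1 (17.51, others 17.35 to 17.37), Timp1 (17.92, others 18.08 to 18.09) and Zfpm2 (10.06, others 9.91 to 9.93). MEF-derived array 2a stood apart for Hoxc9 (3.2, others 3.8 to 3.9), Ifna5 (6.01, others 5.59 to 5.6) and Tgfbi (6.3, others 5.95 to 5.99), and array 1a for Serpinb1b (8.71, others 8.88 to 8.9). Among the TTF-derived arrays, 1a stood apart for Foxf2 (11.52, others 11.61 to 11.62) and 1b for S100a8 (5.93, others 6.25 to 6.3). The calls of Foxf2, S100a8, Serpinb1b, Spp1, Tgfbi, Timp1 and Zfpm2 held without these arrays.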

How the results depend on the processing

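Averaging the arrays of each name left 1204 genes called higher, 1217 lower and 20 runs of neighbours, against 2789, 3209 and 40, with 2 residual degrees of freedom. Testing every kept named feature by itself gave 4421 higher and 5040 lower. Leaving out each array in turn gave 2544 to 2710 higher, 2873 to 3063 lower and 36 to 42 runs, and the MEF level was nearer to TTF-derived ieSCs for 61.4% to 62.3% of genes called at least 2-fold. Leaving out both arrays of a name gave 2397 to 3087 higher and 2647 to 3501 lower. Of 301 of the genes named in the text, 226 were called, and 181 of these calls held under all 24 alternatives. The averaged fit ended 38 calls, 23 of which no other alternative ended. Without both arrays of TTF-derived name 2, Col1a2 differed by 0.88, opposite in sign to its uncalled difference over all arrays, and the cause was not tested. The labels give both origins the numbers 1 and 2, but nothing says that a number pairs names. Deviations from the origin mean correlated across origins at 0.17 to 0.25 for arrays of the same number and at -0.24 to -0.18 for arrays of different number. With 2 names in an origin, the deviations of name 1 and name 2 mirror each other, so these ranges are not repeated observations. A fit of only the 8 ieSC arrays added the number as a fixed term and kept the name as a random block. There, 3850 genes were higher and 4489 lower. With no random block these counts were 3850 and 4666. Values at the dim end bound what can be said of genes such as Cdkn2a, Cdkn2b, Mest and Atp1b1, whose low group carries no measurable ratio.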
